A study of Homo sapiens with 12 samples.

Results

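The end state of a double change was examined in Ovcar8 cells, an established human cell line from a high-grade serous ovarian carcinoma. The double change was CCNE1 overexpression together with knockdown of TMLHE by a short hairpin RNA (shRNA), and it was set against control cells. Of the 12 RNA-seq libraries of the series, 9 were chosen by their labels: 3 of CCNE1 overexpression + shTMLHE #1, 3 of CCNE1 overexpression + shTMLHE #2 and 3 of control. The other 3 libraries, of CCNE1 overexpression alone, served to mark which genes CCNE1 had moved, so that their return to the control level could be asked for. All cells had been transduced with lentivirus and selected with puromycin, per the labels' protocols. The labels name no group with a TMLHE hairpin and no added CCNE1, and none with added CCNE1 and a hairpin against another target, so the parts of the CCNE1 construct, of TMLHE loss and of a hairpin as such in a difference from control cannot be told apart. Whether the replicates came from separate cultures or transductions is not said, so p-values measure only how much these samples vary, and that variation may be technical.

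CCNE1 encodes cyclin E1, which activates the kinase CDK2 and drives cells from G1 into S phase. The gene is amplified in a subset of high-grade serous ovarian cancers. TMLHE encodes trimethyllysine dioxygenase, the mitochondrial enzyme of the first step of carnitine synthesis. Carnitine carries long-chain fatty acids into mitochondria for beta-oxidation and takes acetyl groups back out of them. An shRNA is processed into a short guide strand that leads to cleavage of the matching mRNA.

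Levels are given as CPM, counts scaled to a common library size, with TMM scaling, a factor per library that centres the bulk of genes between libraries. Differences are log2 fold changes against control with their standard error (SE), from edgeR's quasi-likelihood test with Benjamini-Hochberg adjusted p-values over the 15378 genes that were tested. The table held 58735 genes. Library totals ran from 14054101 to 16616963 counts in control, 15814583 to 21457503 with CCNE1 alone, 14945893 to 16302525 with shTMLHE #1 and 14558444 to 19945180 with shTMLHE #2. Cytosolic ribosomal protein genes took 14.4 to 15.0% of counts in control and 8.32 to 8.82% in the 6 knockdown libraries. The mean GC content over counts was 53.7 to 53.9% in control, 52.3 to 52.5% with shTMLHE #1 and 50.6 to 50.8% with shTMLHE #2. The markers of the line were present in part: PAX8, the lineage factor of serous tumours, stood at 68.5 to 153 CPM and KRT7, KRT8 and KRT18 were high in all 12 libraries, whereas WT1 was at most 0.951 CPM and MUC16 had 0 counts in every library (a count of 0 allows up to 3). Among markers of other cell types, PTPRC, CD3E and TYROBP had at most 4 counts in any library, CDH5 at most 2, and DCN and POSTN had 0. Other endothelial and fibroblast markers were well counted, with up to 29609 counts in a library for COL1A1, 3458 for EGFL7, 967 for PDGFRB and 609 for ENG.

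Both constructs acted on their named genes. CCNE1 (ENSG00000105173, chr19:29811898-29824308) was at 33.5, 34.1 and 31.6 CPM in control, 1320, 1270 and 1220 with shTMLHE #1, and 860, 823 and 858 with shTMLHE #2. All 6 knockdown libraries thus kept the high CCNE1 level of the CCNE1 libraries, which stood at 1030, 1010 and 963 CPM. TMLHE (ENSG00000185973, chrX:155490115-155669944) was at 18.3, 16.2 and 15.1 CPM in control, 0.712, 0.885 and 1.27 with shTMLHE #1, and 0.247, 0.471 and 0.729 with shTMLHE #2. Its log2 fold change against control was -4.11 ± 0.27 (adjusted p = 2.76e-18) with shTMLHE #1 and -5.14 ± 0.32 (adjusted p = 1.56e-20) with shTMLHE #2, and the groups did not overlap.

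**Figure D1:**
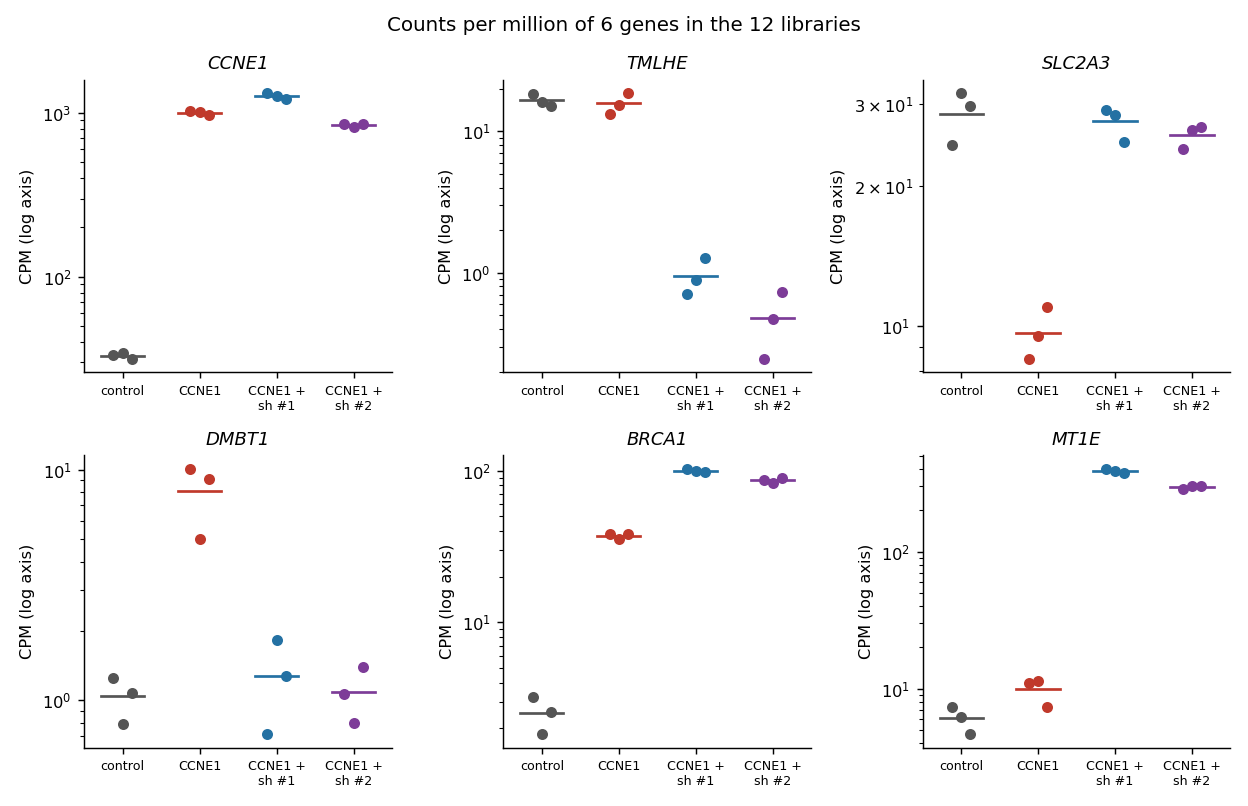
CPM after TMM scaling (log axis) of CCNE1, TMLHE, SLC2A3, DMBT1, BRCA1 and MT1E in the 12 libraries. Points are libraries and bars are group means of 3. SLC2A3 and DMBT1 overlap control in both hairpin groups, whereas BRCA1 and MT1E sit above every control library.

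The double change left most of the measured transcriptome off the control level. Against control, 10571 genes were called with shTMLHE #1 at an adjusted p under 0.05, 5428 higher (35.3% of those tested) and 5143 lower (33.4%). With shTMLHE #2 the count was 12012, with 5995 higher (39.0%) and 6017 lower (39.1%). For the mean of both hairpin groups 11791 genes (76.7%) were called. Both hairpins called 8928 genes in the same direction, 4536 higher (29.5%) and 4392 lower (28.6%), and 646 genes (4.20%) in opposite directions. CCNE1 alone against the same control libraries gave 3866 higher (25.1%) and 2936 lower (19.1%). The split between higher and lower depends on the scaling: the share of called genes that were higher was 51.3% with shTMLHE #1 and 49.9% with shTMLHE #2 under TMM, and 70.9% and 66.0% when libraries were scaled by total counts alone, which moved the median of all genes up by 0.41 and 0.52 on the log2 scale.

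Few of the genes that CCNE1 had moved were back at control. Of the genes tested, 941 differed at least 2-fold with CCNE1 alone, 563 higher and 378 lower. A gene counted as returned where the 95% interval of its difference from control lay within 1.5-fold for each hairpin, since a p that misses the threshold does not show a return. By this rule 5 of the 941 (0.531%) had returned, while among all genes tested 8.55% lay within 1.5-fold of control with both hairpins. A gene counted as still off where each hairpin was called at least 1.5-fold from control on the side to which CCNE1 had moved it, and this held for 639 (67.9%). Among all genes tested, 22.8% were called at least 1.5-fold higher with both hairpins and 18.5% lower. A further 11 were past control, called at least 1.5-fold on the other side with both hairpins, 6 were mixed and 280 were undecided. The comparisons share the 3 control libraries, so these counts are a description of the end state and not independent evidence. Precision limits the count of returned genes: for 337 of the 941 (35.8%) both intervals were narrow enough to fall within the bound at all. Of these 337, 332 had not returned. Over all genes tested 11001 (71.5%) had intervals that narrow, so the shares of 0.531% and 8.55% do not rest on equal precision.

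**Figure D2:**
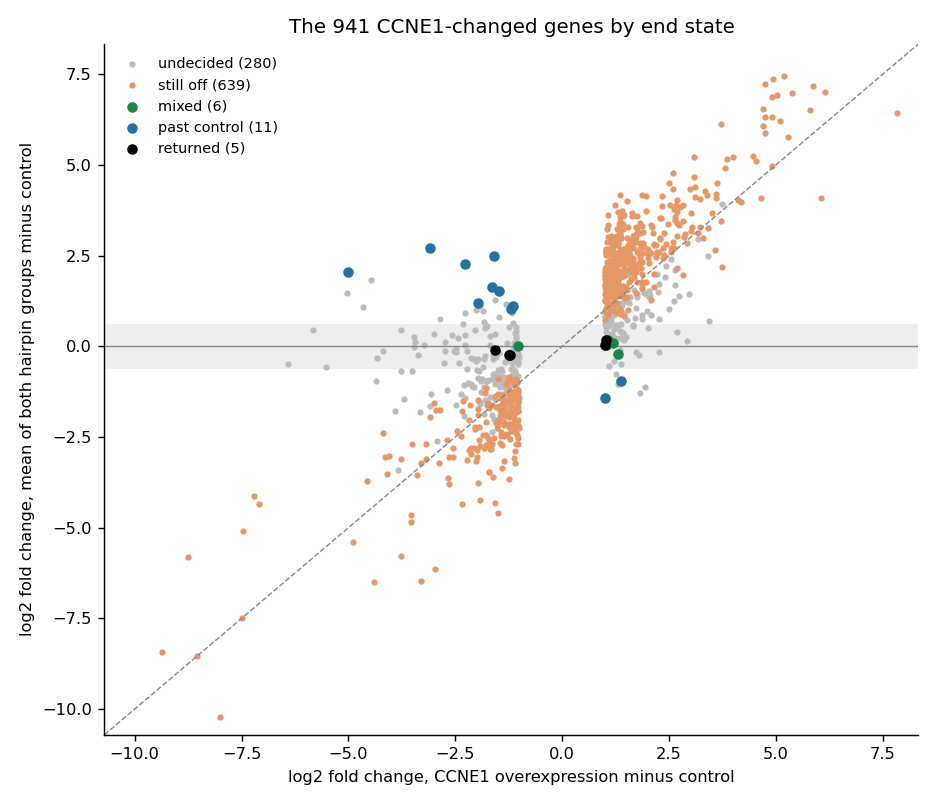
Log2 fold change against control with CCNE1 alone (horizontal) and for the mean of both hairpin groups (vertical) for the 941 CCNE1-changed genes, coloured by end state. The grey band marks 1.5-fold, the dashed line equal change, and 34 genes at 0 counts in a whole group have fitted values that are no bounds. Most genes higher with CCNE1 lie above the dashed line, and the 5 returned genes lie in the band.

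The returned genes were 3 that CCNE1 had lowered and 2 that it had raised. SLC2A3 (ENSG00000059804, chr12:7919230-7936275), the glucose transporter GLUT3, was at 24.5, 31.7 and 29.7 CPM in control and 8.51, 9.52 and 11.0 with CCNE1. In the knockdown libraries it was at 29.2, 28.5 and 24.9 CPM with shTMLHE #1 and 24.0, 26.4 and 26.8 with shTMLHE #2. Every knockdown library lay above every CCNE1 library, and both hairpin groups overlapped control. The difference from control was -0.05 ± 0.11 (95% interval -0.27 to 0.16) with shTMLHE #1 and -0.15 ± 0.11 (-0.37 to 0.06) with shTMLHE #2, against -1.56 with CCNE1 alone. Without control replicate 1 the difference with shTMLHE #2 was -0.26 and was called (adjusted p = 0.0345).

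MMP19 (chr12:55835433-55842966), a secreted metalloproteinase of the matrix, was at 24.8, 24.5 and 25.3 CPM in control, 9.93, 10.1 and 11.6 with CCNE1, 21, 20.6 and 20 with shTMLHE #1 and 21.1, 20.4 and 23.0 with shTMLHE #2. It came close to control but all 6 knockdown libraries stayed below the lowest control, and the difference was called with shTMLHE #1 (-0.28 ± 0.10, adjusted p = 0.018) and not with shTMLHE #2 (-0.21 ± 0.10, adjusted p = 0.0567). Without shTMLHE1 replicate 3 the call with shTMLHE #1 was lost (-0.25, adjusted p = 0.0590), and without shTMLHE2 replicate 3 or any of the 3 CCNE1 libraries the difference with shTMLHE #2 was called (adjusted p from 0.0462 to 0.0492). PDGFRB (chr5:150113837-150155872), the beta receptor for platelet-derived growth factor, was at 48.2, 42.3 and 45.7 CPM in control, 17.1, 20.6 and 21 with CCNE1, 34.3, 37.4 and 33.2 with shTMLHE #1 and 39.7, 41.2 and 44.4 with shTMLHE #2. With shTMLHE #1 it stayed below control (-0.38 ± 0.08, adjusted p = 1.47e-04), within the bound, and with shTMLHE #2 the groups overlapped (-0.12 ± 0.08, adjusted p = 0.167).

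ETV4 (chr17:43527844-43579620), a transcription factor of the ETS family, was at 58.2, 52.5 and 53 CPM in control, 111, 101 and 126 with CCNE1, 67.8, 75.3 and 75.5 with shTMLHE #1 and 51.1, 55.6 and 48.8 with shTMLHE #2. PFDN4 (chr20:54207847-54228052), a subunit of the chaperone prefoldin, was at 29.8, 32.1 and 32.1 CPM in control, 66.2, 58.5 and 65.2 with CCNE1, 40.9, 35.4 and 35.5 with shTMLHE #1 and 30.3, 25.9 and 28.5 with shTMLHE #2. For both genes shTMLHE #1 left a called rise inside the bound (0.42 ± 0.07 for ETV4 and 0.25 ± 0.08 for PFDN4), and shTMLHE #2 gave -0.08 ± 0.07 for ETV4 and -0.15 ± 0.08 for PFDN4. The rise of PFDN4 was not called without shTMLHE1 replicate 1 (0.18, adjusted p = 0.0845). When a trend of each library on GC content and transcript length was taken out, 5 genes were again called returned but only MMP19 was among both sets of 5. The same fit put SLC2A3 at -0.30 and -0.61 against control, PDGFRB at -0.19 and 0.48, ETV4 at 0.91 and 0.96, and PFDN4 at -0.27 and -1.18, for shTMLHE #1 and shTMLHE #2 in that order. Under scaling by total counts SLC2A3, MMP19 and PDGFRB were still called returned, and ETV4 and PFDN4 were not.

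**Figure D3:**
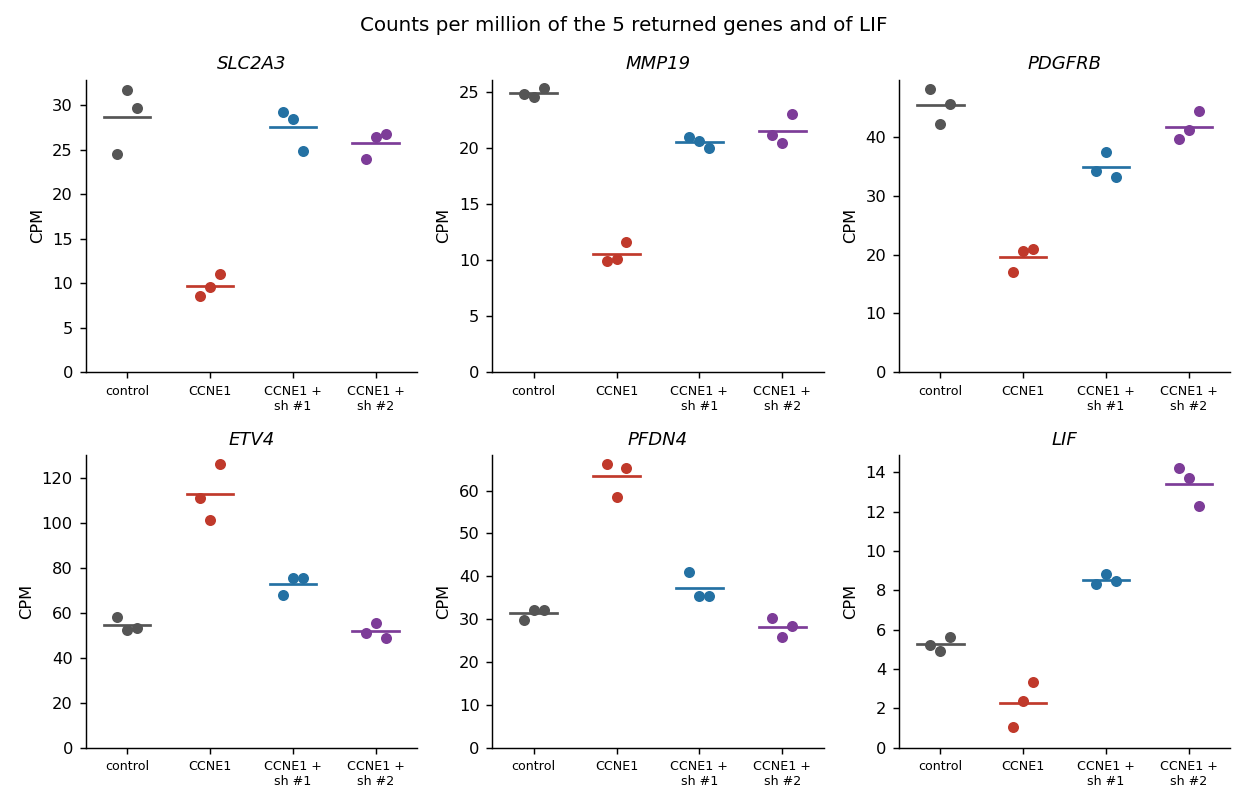
CPM after TMM scaling (linear axis from 0) of the 5 returned genes and of LIF in the 12 libraries. Points are libraries and bars are group means of 3. In the 5 returned genes the hairpin groups lie near control and apart from CCNE1 alone, and in LIF they lie above control while CCNE1 alone lies below.

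DMBT1 (chr10:122560665-122643736), a secreted scavenger receptor glycoprotein, shows how depth limits the call. It was at 1.25, 0.793 and 1.08 CPM in control, 10.1, 5.01 and 9.12 with CCNE1, 0.712, 1.83 and 1.27 with shTMLHE #1 and 1.07, 0.801 and 1.40 with shTMLHE #2. The hairpin groups overlapped control and lay below every CCNE1 library. Its differences from control were 0.28 ± 0.40 and 0.05 ± 0.40, with intervals wider than the bound, so a return within 1.5-fold was not resolvable at this depth and the gene stands among the undecided. Of the 941 genes, 52 had point estimates within 1.5-fold with both hairpins.

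CDKN1A (chr6:36676460-36687339), the CDK inhibitor p21, was undecided because the hairpins differed. It was at 73.9, 80.6 and 74.7 CPM in control, 34, 35.1 and 36.1 with CCNE1, 75.7, 73.2 and 81.1 with shTMLHE #1 and 19.2, 21.9 and 18.3 with shTMLHE #2. With shTMLHE #1 it lay at the control level (0.005 ± 0.067), and with shTMLHE #2 it fell below control (-1.94 ± 0.07, adjusted p = 2.25e-24) and below CCNE1 alone (-0.82 ± 0.08, adjusted p = 3.34e-12). The difference with shTMLHE #1 was called under total counts (0.38) and in the fit without the GC and length trend (0.50).

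Genes raised by CCNE1 mostly stayed raised, and many rose further. Of the 563, 441 (78.3%) were still off. The median log2 fold change over the 563 was 1.37 with CCNE1, 1.97 with shTMLHE #1 and 2.26 with shTMLHE #2. Of the 378 genes lowered by CCNE1, 198 (52.4%) were still off, with medians over the 378 of -1.55, -1.29 and -1.55. Setting genes at 0 counts in a whole group to the bound that 3 counts over the group allow moved these medians to 1.36 and -1.54 with CCNE1 alone and left those with the hairpins as given. Among the 639 genes still off, 455 lay farther from control with both hairpins than with CCNE1 by point estimate. Of the 639, 235 were called farther than in the CCNE1 libraries with both hairpins, and 9 were called nearer. The rule for still off leaves out genes that came back near control, so these counts are partly set by that rule. Over all genes tested, 4673 were called higher and 4665 lower than in the CCNE1 libraries with shTMLHE #1, and 5653 and 5571 with shTMLHE #2. Those are calls for each hairpin on its own and in either direction, so they are no matching share for both hairpins. The 441 raised genes still off had a median exon GC content of 42.4%, against 49.7% over all genes tested. The 1537 tested genes around a GC content of 43.4% had medians of 0.27 with CCNE1, 0.47 with shTMLHE #1 and 0.85 with shTMLHE #2. Whether the further rise goes with base composition was not tested.

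BRCA1 (chr17:43044295-43170245), a core factor of DNA repair by homologous recombination, rose with CCNE1 and lay higher still with each hairpin. It was at 3.21, 1.82 and 2.57 CPM in control, 38.1, 35.2 and 38.5 with CCNE1, 103, 99.2 and 97.6 with shTMLHE #1 and 87.1, 83.4 and 89.6 with shTMLHE #2. No group overlapped another in the order control, CCNE1, shTMLHE #2, shTMLHE #1. The difference from control was 5.28 ± 0.15 (adjusted p = 9.32e-33) with shTMLHE #1 and 5.08 ± 0.15 (adjusted p = 1.33e-32) with shTMLHE #2, and was 4.53 and 3.90 with the GC and length trend taken out. Against CCNE1 alone it was 1.43 ± 0.07 (adjusted p = 9.22e-21) and 1.22 ± 0.07 (adjusted p = 4.82e-19).

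KIF20B, a kinesin of cell division, went from 3.62, 3.41 and 1.90 CPM in control to 44.5, 43.8 and 43.6 with shTMLHE #1 and 53.7, 50.8 and 54.1 with shTMLHE #2 (3.86 ± 0.15 and 4.13 ± 0.15). With CCNE1 alone it was at 8.81, 9.02 and 8.24 CPM, so both hairpin groups lay above it. FN1, the matrix protein fibronectin, was at a mean of 1190 CPM in control, 2580 with CCNE1, 3220 with shTMLHE #1 and 3090 with shTMLHE #2 (1.43 ± 0.03 and 1.37 ± 0.03 against control). KRT7, a keratin of simple epithelia, was among the 9 genes called nearer to control than in the CCNE1 libraries, at a mean of 265 CPM in control, 1180 with CCNE1, 790 with shTMLHE #1 and 863 with shTMLHE #2.

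Among genes that stayed low, ACTC1, the cardiac alpha-actin, was at 64.4, 65.7 and 61.0 CPM in control, 4.85, 5.39 and 6.27 with CCNE1, 1.59, 2.88 and 2.48 with shTMLHE #1 and 2.18, 2.21 and 1.96 with shTMLHE #2 (-4.78 ± 0.17 and -4.90 ± 0.16). TNNC1, the troponin C of slow and cardiac muscle, went from a mean of 64.4 CPM to 10.2 with CCNE1, 2.73 with shTMLHE #1 and 7.75 with shTMLHE #2. MDK, the heparin-binding growth factor midkine, went from 103 CPM to 22.1, 11.8 and 11.6 in the same order. IFI27, an interferon-inducible gene, stayed where CCNE1 had put it, with differences from control of -3.29 with CCNE1, -3.13 ± 0.19 with shTMLHE #1 and -3.30 ± 0.19 with shTMLHE #2. EMC10, a subunit of the membrane protein complex of the endoplasmic reticulum, had 657, 607 and 499 counts in the control libraries, 0, 4 and 4 with CCNE1, 0, 0 and 1 with shTMLHE #1 and 0, 3 and 0 with shTMLHE #2. The other 9 tested subunits of that complex gave 3 higher and 4 lower calls with shTMLHE #1 and 2 higher and 5 lower with shTMLHE #2, and with the GC and length trend taken out none of the 10 was higher with either hairpin.

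The 11 genes past control were mostly of low level, and 9 of them had been lowered by CCNE1. LIF (chr22:30240447-30246851), a cytokine that signals through the receptor subunit IL6ST, was at 5.23, 4.92 and 5.63 CPM in control, 1.05, 2.37 and 3.36 with CCNE1, 8.33, 8.85 and 8.47 with shTMLHE #1 and 14.2, 13.7 and 12.3 with shTMLHE #2. All CCNE1 libraries lay below control and all knockdown libraries above it (0.70 ± 0.20, adjusted p = 0.00248, and 1.35 ± 0.20, adjusted p = 8.53e-08, against -1.19 with CCNE1). TEX19, a gene of the germ line, went the other way, from a mean of 26.2 CPM in control to 52.5 with CCNE1, 12.7 with shTMLHE #1 and 7.49 with shTMLHE #2, but 43.8% of its exon bases are shared with another annotated gene and its reads may not all be its own. The count of genes past control moved between 2 and 20 over the alternatives tried, and 17 were called without CCNE1 replicate 3 and 4 without control replicate 3.

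The double change also moved genes that CCNE1 had left within 1.5-fold of control. CCNE1 alone left 6420 genes (41.7% of those tested) with an interval within 1.5-fold of control, and 839 of these were called at least 2-fold off control in the same direction with both hairpins, 212 higher (3.30% of the 6420) and 627 lower (9.77%). Among all genes tested, 15.5% were called at least 2-fold higher with both hairpins and 9.61% lower, so the share of lower genes was near that of all genes and the share of higher genes below it. FGFRL1, a receptor of the fibroblast growth factor family that lacks a kinase domain, was at 120, 125 and 122 CPM in control, 97.2, 98.5 and 95.9 with CCNE1, 8.55, 11.0 and 9.93 with shTMLHE #1 and 13.3, 17.4 and 16.9 with shTMLHE #2 (-3.64 ± 0.09 and -2.96 ± 0.08), after a smaller fall with CCNE1 (-0.34 ± 0.07, adjusted p = 7.15e-05). CDK4, the partner kinase of D-type cyclins, was at a mean of 477 CPM in control, 483 with CCNE1, 145 with shTMLHE #1 and 118 with shTMLHE #2 (-1.71 ± 0.04 and -2.01 ± 0.04), with 43.2% of its exon bases shared with another gene. RPLP0, a protein of the ribosomal stalk, was at 11300, 11700, 4300 and 3760 CPM in the same order. With the GC and length trend taken out, 389 genes met the rule.

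Several metallothionein genes rose with both hairpins. They encode small cysteine-rich proteins that bind zinc and copper, and metals induce them through the factor MTF1 at metal response elements. MT1E (chr16:56625475-56627112) was at 7.39, 6.18 and 4.64 CPM in control, 11.1, 11.4 and 7.35 with CCNE1, 403, 388 and 377 with shTMLHE #1 and 288, 302 and 303 with shTMLHE #2. The hairpin groups lay far above both other groups, with differences from control of 5.99 ± 0.14 (adjusted p = 1.73e-18) and 5.60 ± 0.14 (adjusted p = 2.38e-18). The core of a metal response element reads TGCACNC or TGCGCNC. Promoter windows of the metallothionein genes MT2A and MT1X and of the zinc transport gene SLC30A1 are shown because these genes rose with both hairpins. They are the 250 bases before the start given by RefSeq (GRCh38.p14), 5′ to 3′ on the strand of the gene, with matches on either strand in capitals and no overlap between matches. MT2A stands at chr16:56608334-56608583 (plus strand), MT1X at chr16:56682220-56682469 (plus strand) and SLC30A1 at chr1:211579162-211579411 (minus strand).
MT2A: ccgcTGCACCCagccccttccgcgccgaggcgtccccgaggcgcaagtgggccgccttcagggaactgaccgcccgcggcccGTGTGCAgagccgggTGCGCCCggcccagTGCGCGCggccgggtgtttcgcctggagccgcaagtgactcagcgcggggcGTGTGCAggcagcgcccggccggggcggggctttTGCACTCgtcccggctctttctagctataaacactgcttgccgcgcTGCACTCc
MT1X: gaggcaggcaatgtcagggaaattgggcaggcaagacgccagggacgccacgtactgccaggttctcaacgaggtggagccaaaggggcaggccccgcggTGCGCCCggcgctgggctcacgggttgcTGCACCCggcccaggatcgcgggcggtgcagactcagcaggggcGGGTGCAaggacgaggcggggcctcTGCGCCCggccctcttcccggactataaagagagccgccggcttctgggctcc
SLC30A1: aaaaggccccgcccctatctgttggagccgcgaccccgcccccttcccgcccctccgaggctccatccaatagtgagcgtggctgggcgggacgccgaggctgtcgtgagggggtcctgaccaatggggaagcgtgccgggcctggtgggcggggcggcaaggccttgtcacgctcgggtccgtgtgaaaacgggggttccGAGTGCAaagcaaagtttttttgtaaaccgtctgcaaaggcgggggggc

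The window of MT2A held 7 matches, that of MT1X 4 and that of SLC30A1 1. No window was available for MT1E, MT1F or MT1M. Of all 35116 windows of this length in the table, 24.8% held at least 1 match and 0.37% held at least 4. A match is a description of letters and not a measured site.

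Of 10 metallothionein genes listed, 5 passed the filter on low counts, and MT1E and MT2A are those with more than 50 counts in each control library. MT2A was at 277, 294 and 279 CPM in control, 398, 424 and 415 with CCNE1, 1260, 1270 and 1380 with shTMLHE #1 and 666, 607 and 696 with shTMLHE #2 (2.20 ± 0.04 and 1.21 ± 0.04). MT1X went from 1.32, 1.11 and 0.414 CPM in control to 27.8, 27.8 and 29.8 with shTMLHE #1 and 14.1, 13.5 and 12.9 with shTMLHE #2 (4.86 ± 0.27 and 3.79 ± 0.27). In MT1E, MT2A and MT1X the libraries with shTMLHE #1 lay above those with shTMLHE #2. MT1M (6.10 ± 0.79 and 5.12 ± 0.80) and MT1F (3.61 ± 0.42 and 2.42 ± 0.42) had at most 5 and 7 counts in a control library, so that their place among the genes tested came from the other groups. Metallothionein genes are near copies of each other, and how reads that match several genes were assigned is not given in the sources used here, so the division of counts among them is uncertain. SLC30A1, the zinc exporter of the cell surface, was at 0.348, 0.555 and 1.49 CPM in control, 9.86, 9.13 and 7.99 with shTMLHE #1 and 19.1, 15.4 and 18.2 with shTMLHE #2. The control libraries held 5, 7 and 18 counts of SLC30A1 and 19, 14 and 5 of MT1X, so both control levels rest on few counts. SLC39A4, a zinc importer, fell from a mean of 134 CPM in control to 50.2 with shTMLHE #1 and 32.0 with shTMLHE #2. Of the 23 tested genes of the zinc list, 12 were higher and 7 lower with shTMLHE #1 (median log2 fold change 0.31) and 14 higher and 5 lower with shTMLHE #2 (median 0.68), beside medians over all genes tested of 0.036 and 0.013. With the GC and length trend taken out the list gave 8 higher and 8 lower (median 0.10) with shTMLHE #1 and 10 higher and 8 lower (median 0.12) with shTMLHE #2, so its lean was lost, while MT1E stood at 6.53 and 6.43 and MT2A at 2.78 and 2.13.

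Genes of homologous recombination, the repair of double-strand breaks from a sister copy, were mostly higher. Of 39 tested, 23 were higher and 5 lower with shTMLHE #1 (median 0.82) and 24 higher and 11 lower with shTMLHE #2 (median 1.17), where CCNE1 alone gave 18 higher and 4 lower (median 0.39). BRCA2 was at 1.95, 1.27 and 1.90 CPM in control, 14.1, 14.7 and 11.7 with shTMLHE #1 and 17.6, 16.8 and 18.5 with shTMLHE #2 (2.97 ± 0.24 and 3.35 ± 0.23). BARD1, the partner of BRCA1 (1.52 ± 0.22 and 1.92 ± 0.22), PALB2, which links BRCA1 to BRCA2 (1.15 ± 0.21 and 1.10 ± 0.20), and the damage kinase ATM (1.69 ± 0.10 and 2.04 ± 0.10) rose with both hairpins. RAD51C rose with shTMLHE #2 only by the threshold (0.56 ± 0.11, adjusted p = 3.67e-05), with 0.10 ± 0.12 for shTMLHE #1, and stood at -0.53 and -0.54 in that order with the GC and length trend taken out. XRCC3 fell with both (-1.07 ± 0.09 and -1.97 ± 0.10), though 76.7% of its exon bases are shared with another gene. The exons of this list are low in GC, at a median of 41.6% against 49.7% over all genes tested. With the GC and length trend taken out the counts were 12 higher and 7 lower (median 0.12) with shTMLHE #1 and 15 higher and 12 lower (median 0.13) with shTMLHE #2, and ATM was at 0.23 and 0.10 (adjusted p = 0.397 with shTMLHE #2). PALB2 was at 0.17 with shTMLHE #2 in that fit and was not called (adjusted p = 0.461).

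More mitotic genes were higher than lower, while genes of DNA replication split. The shares over all genes tested were 35.3% higher and 33.4% lower with shTMLHE #1, and 39.0% and 39.1% with shTMLHE #2. Of 44 genes of G2/M and mitosis, CCNE1 alone gave 32 higher and 1 lower (median 0.42). For the hairpins 29 were higher and 8 lower with shTMLHE #1 (median 0.82) and 28 higher and 14 lower with shTMLHE #2 (median 0.73), and the 10 that CCNE1 had moved at least 2-fold were all still off. TOP2A, the topoisomerase that untangles chromosomes, was at 104, 99.8 and 101 CPM in control, 219, 236 and 219 with CCNE1, 441, 409 and 399 with shTMLHE #1 and 467, 448 and 472 with shTMLHE #2. KIF11, the kinesin that separates spindle poles, went from a mean of 16.9 CPM in control to 43.5 with CCNE1, 73.2 with shTMLHE #1 and 104 with shTMLHE #2. With the GC and length trend taken out the list gave 33 higher and 6 lower calls (median 0.61) with shTMLHE #1 and 28 higher and 11 lower (median 0.49) with shTMLHE #2.

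Of 51 genes of G1/S and DNA replication, 36 were higher and 2 lower with CCNE1 alone (median 0.33). With shTMLHE #1 the counts were 17 higher and 22 lower (median -0.075) and with shTMLHE #2 they were 22 higher and 23 lower (median 0.062). The genes higher with shTMLHE #1 and those higher or lower with shTMLHE #2 were near the shares of all genes tested. The 22 lower with shTMLHE #1 lay above the share of all genes, at 33.4%. Scaling by total counts gave medians of 0.30 and 0.57, beside 0.41 and 0.52 over all genes, so the sign with shTMLHE #1 depends on the scaling. The list median with shTMLHE #1 lay below that of all genes under total counts and under TMM (0.036 over all genes). With shTMLHE #2 the median was above 0 under each scaling run and was -0.10 with the GC and length trend taken out. CDT1, which licenses replication origins, was at 377, 403 and 386 CPM in control, 537, 529 and 540 with CCNE1, 148, 147 and 160 with shTMLHE #1 and 96.8, 98.9 and 88.5 with shTMLHE #2. It thus rose with CCNE1 (0.46 ± 0.04) and fell below control with both hairpins (-1.36 ± 0.04 and -2.04 ± 0.04). POLD1, the catalytic subunit of DNA polymerase delta, went from a mean of 205 CPM in control to 242 with CCNE1, 121 with shTMLHE #1 and 43.4 with shTMLHE #2. CCND1, cyclin D1, rose from 145 CPM to 254, 582 and 294 in the same order.

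More genes of carnitine handling, the pathway of TMLHE itself, were lower than higher. Of 13 tested, TMLHE included, 3 were higher and 9 lower with shTMLHE #1 (median -0.64) and 2 higher and 9 lower with shTMLHE #2 (median -0.86), where CCNE1 alone gave 0 higher and 4 lower. Total counts gave 5 higher and 7 lower (median -0.27), then 3 higher and 6 lower (median -0.35). CRAT, which joins acetyl groups to carnitine, was at 90.3, 93.2 and 94.6 CPM in control, 67.7, 81.0 and 87.1 with CCNE1, 42.3, 41.8 and 43.2 with shTMLHE #1 and 17.4, 16.9 and 14.9 with shTMLHE #2 (-1.13 ± 0.07 and -2.49 ± 0.08). SLC22A5, the carnitine transporter of the cell surface, was at 7.88, 6.50 and 7.70 CPM in control, 1.97, 3.15 and 2.36 with shTMLHE #1 and 1.97, 1.27 and 1.74 with shTMLHE #2. SLC25A20, which exchanges carnitine and acylcarnitine across the inner mitochondrial membrane, fell more with shTMLHE #1 (-2.46 ± 0.21) than with shTMLHE #2 (-0.86 ± 0.17), and the difference between the hairpins was -1.60 ± 0.21 (adjusted p = 8.01e-09). Under total counts its fall with shTMLHE #2 was not called (-0.35, adjusted p = 0.0656). CROT, a peroxisomal carnitine transferase, rose with both hairpins (1.49 ± 0.16 and 1.27 ± 0.16), and was at -0.20 with shTMLHE #2 once the GC and length trend was taken out. CPT1A, which makes acylcarnitine at the outer mitochondrial membrane, rose with shTMLHE #1 (1.02 ± 0.24, adjusted p = 2.13e-04) and was at 0.31 ± 0.24 (adjusted p = 0.229) with shTMLHE #2, which became 0.69 (adjusted p = 0.0173) without control replicate 1. Of 25 genes of fatty acid beta-oxidation, 4 were higher and 16 lower with shTMLHE #1 (median -0.34) and 7 higher and 16 lower with shTMLHE #2 (median -0.75), and the medians were 0.031 and -0.24 under scaling by total counts. ACADVL, the dehydrogenase of very long chains, fell from a mean of 323 CPM to 146 and 111, and ACSL4, which activates fatty acids, rose from 57.3 to 141 and 222.

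Acetyl groups carried by carnitine can feed histone acetylation. Of 17 histone acetyltransferase genes, 13 were higher and 3 lower with shTMLHE #1 (median 0.97) and 13 higher and 4 lower with shTMLHE #2 (median 1.05). Removing the GC and length trend lowered the medians to 0.42 and 0.53. HAT1 was at 4.88, 5.79 and 6.54 CPM in control, 29.1, 25.3 and 24.3 with shTMLHE #1 and 42.7, 43.5 and 44.0 with shTMLHE #2, and KAT8 fell from a mean of 112 CPM to 42.8 and 32.3. Of 18 histone deacetylase genes, 3 were higher and 9 lower with shTMLHE #1 (median -0.27) and 3 higher and 12 lower with shTMLHE #2 (median -0.83), although the median with shTMLHE #1 turned to 0.098 under scaling by total counts. HDAC5 fell from 269 CPM to 141 and 50.5. Of 18 genes of acetyl-CoA supply, 7 were higher and 7 lower with shTMLHE #1 and 6 higher and 7 lower with shTMLHE #2, which total counts turned to 11 and 4, then 10 and 4, and removal of the GC and length trend to 3 and 10, then 4 and 9.

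Most ribosomal protein genes and nuclear respiratory chain genes fell with both hairpins. Of 77 cytosolic ribosomal protein genes, 75 were lower and 1 higher with shTMLHE #1 (median -1.07) and 69 lower and 4 higher with shTMLHE #2 (median -1.18), where CCNE1 alone gave 49 higher and 6 lower (median 0.19). RPSA was at 8350, 7950 and 8030 CPM in control, 8340, 8390 and 8440 with CCNE1, 2350, 2490 and 2360 with shTMLHE #1 and 2670, 2790 and 2730 with shTMLHE #2. Of 44 nuclear genes of the respiratory chain, 38 were lower and 1 higher with shTMLHE #1 (median -0.67) and 35 lower and 6 higher with shTMLHE #2 (median -0.97), with NDUFS8, a subunit of complex I, going from a mean of 454 CPM in control to 169 and 121. The medians of both lists stayed below 0 under total counts (-0.70 and -0.67 for ribosomal proteins, -0.29 and -0.46 for the respiratory chain) and with the GC and length trend taken out (-0.90 and -0.84, and -0.64 and -0.83). The 13 mRNAs encoded by the mitochondrial genome did otherwise: 9 were higher and 3 lower with shTMLHE #1 (median 0.50) and 1 higher and 11 lower with shTMLHE #2 (median -0.41), and 7 were called in opposite directions. Under total counts the list gave 10 higher and 1 lower (median 0.87), then 7 higher and 5 lower (median 0.099), so its direction with shTMLHE #2 depends on the scaling. MT-CO1, the catalytic subunit of complex IV, was at 11700, 11400 and 12200 CPM in control, 12700, 12000 and 11400 with shTMLHE #1 and 4860, 4830 and 4840 with shTMLHE #2, so that the groups of control and shTMLHE #1 overlapped (0.034 ± 0.027, adjusted p = 0.272). Without shTMLHE1 replicate 3 that difference was called, at 0.075 (adjusted p = 0.00857). Of 29 genes of glucose uptake and glycolysis, 7 were higher and 17 lower with shTMLHE #1 (median -0.41) and 5 higher and 14 lower with shTMLHE #2 (median -0.18), with medians of -0.038 and 0.33 under total counts. SLC2A3 is in this list, and GAPDH fell from a mean of 11900 CPM in control to 4980 and 4570.

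Genes of the cell surface and matrix moved both ways. Of 20 genes of MHC antigen presentation, 15 were lower and 1 higher with shTMLHE #1 (median -0.59) and 17 lower and 2 higher with shTMLHE #2 (median -1.10), after 13 lower and 1 higher with CCNE1 alone (median -0.45). Total counts gave 9 lower and 7 higher (median -0.22) with shTMLHE #1 and 15 lower and 2 higher (median -0.60) with shTMLHE #2, and the fit without the GC and length trend gave 11 lower and 6 higher (-0.29) and 14 lower and 5 higher (-0.52). HLA-E went from a mean of 500 CPM in control to 347 with CCNE1, 278 with shTMLHE #1 and 235 with shTMLHE #2. Of 28 collagen and matrix genes, CCNE1 alone gave 6 higher and 13 lower (median -0.24), whereas 17 were higher and 8 lower with shTMLHE #1 (median 0.43) and 16 higher and 10 lower with shTMLHE #2 (median 0.59). COL1A1 was at 852, 924 and 861 CPM in control, 623, 591 and 602 with CCNE1, 1500, 1590 and 1560 with shTMLHE #1 and 1220, 1250 and 1210 with shTMLHE #2, and COL4A1, of basement membranes, rose from a mean of 82.0 CPM to 379 and 429. BGN, the proteoglycan biglycan, fell from 177 CPM to 42.5 and 18.7. Of 19 NF-kappaB targets, 8 were higher and 4 lower with shTMLHE #1 (median 0.17) and 10 higher and 6 lower with shTMLHE #2 (median 0.67), after 2 higher and 8 lower with CCNE1 alone (median -0.38). Among all genes tested, 35.3% were higher and 33.4% lower with shTMLHE #1, and 39.0% and 39.1% with shTMLHE #2. The 8 of 19 NF-kappaB targets higher with shTMLHE #1 were thus near the share of all genes.

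In the other lists the calls under TMM were split between higher and lower in at least 1 hairpin group. Of 30 genes of the ATF4 response and serine synthesis, 19 were higher and 6 lower with shTMLHE #1 (median 0.32) and 12 higher and 16 lower with shTMLHE #2 (median -0.37). SLC7A11, the cystine transporter, rose in both hairpin groups, from a mean of 9.84 CPM in control to 43.1 and 93.5, and SHMT2, the mitochondrial serine hydroxymethyltransferase, was at 773 CPM in control, 685 with shTMLHE #1 and 261 with shTMLHE #2, with a difference for shTMLHE #1 of -0.17 that turned to 0.20 under total counts. Of 25 epithelial and mesenchymal genes, 12 were higher and 7 lower with shTMLHE #1 and 9 higher and 13 lower with shTMLHE #2. Of 26 p53 targets the calls were 9 higher and 7 lower, then 11 and 9. For 26 interferon genes they were 9 and 8, then 10 and 10. For 19 genes of the unfolded protein response they were 9 and 6, then 9 and 8. For 25 genes of cholesterol synthesis they were 10 and 10, then 13 and 12. For 16 genes of end joining they were 9 and 7, then 9 and 6. Under TMM all genes tested split as well, with 35.3% higher and 33.4% lower with shTMLHE #1, and 39.0% and 39.1% with shTMLHE #2. The counts of p53 targets and interferon genes were near these shares. The splits in these lists depend on the scaling, which moves all genes. Over the 15378 genes tested, total counts gave 7690 higher and 3162 lower with shTMLHE #1, and 7974 and 4115 with shTMLHE #2. Under total counts p53 targets gave 19 higher and 3 lower, then 17 and 7, the unfolded protein response 13 and 4, then 15 and 1, and the ATF4 list 26 and 3, then 14 and 7, with its median for shTMLHE #2 at 0.14. Epithelial and mesenchymal genes gave 15 and 4, then 13 and 6, interferon genes 12 and 7, then 11 and 8, cholesterol synthesis 17 and 8, then 14 and 8, and end joining 11 and 3, then 10 and 5. Of 10 markers each of other cell types, 2 leukocyte, 7 endothelial and 4 fibroblast genes passed the filter and were tested.

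**Figure D4:**
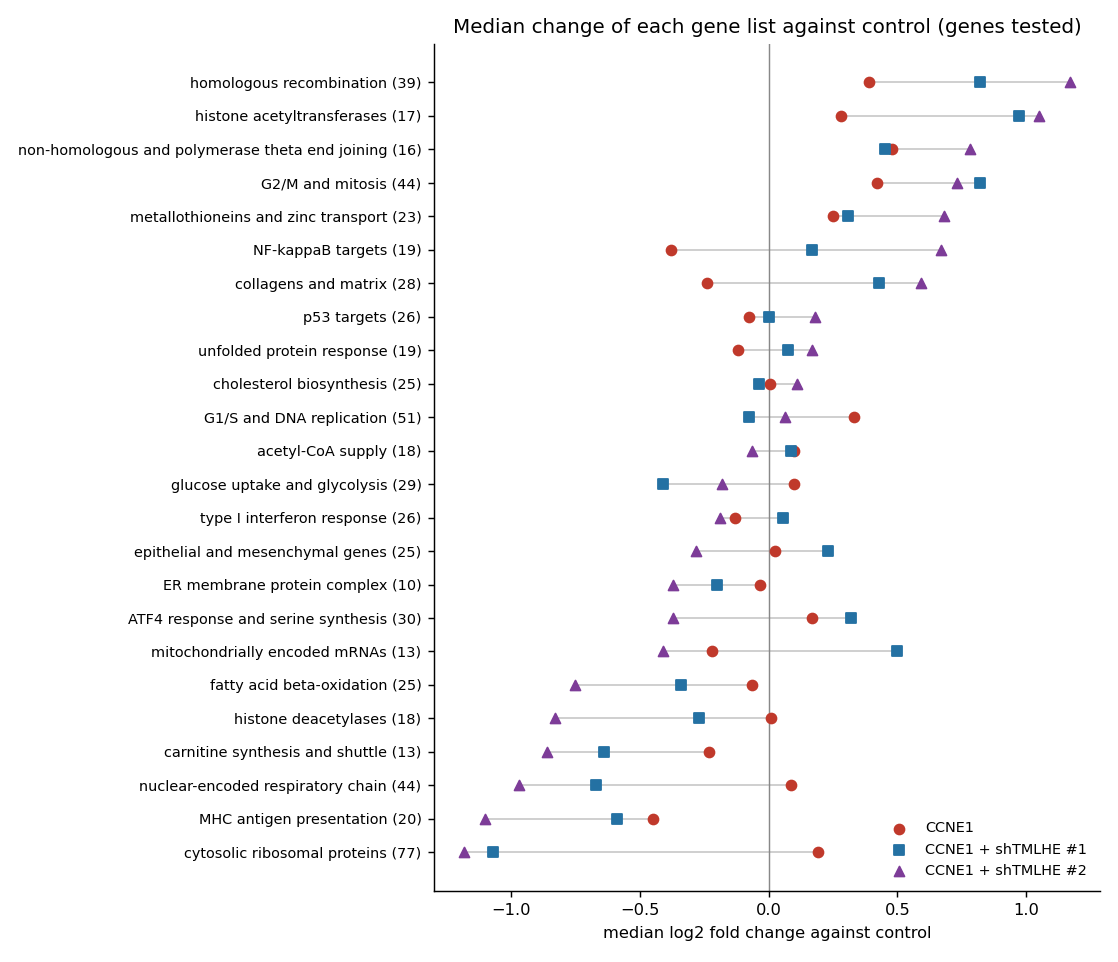
Median log2 fold change against control of the tested members of each gene list with CCNE1 alone, with shTMLHE #1 and with shTMLHE #2. Cytosolic ribosomal proteins lie at 0.19 with CCNE1 and at -1.07 and -1.18 with the hairpins.

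The difference from control went with the GC content of exons. Over 15373 genes, a correlation across genes, which are not independent replicates, gave Spearman's rho of -0.39 with CCNE1, -0.50 with shTMLHE #1 and -0.68 with shTMLHE #2. The genes were put in 10 equal bins by GC content. The bin lowest in GC (median 38.5%) had median log2 fold changes of 0.50, 1.18 and 1.81 in that order, and the bin highest in GC (median 64.1%) had -0.034, -0.51 and -1.34. Genes higher with both hairpins had a median GC content of 42.8% and those lower 57.0%. With a trend on GC content and transcript length taken out of each library, 3119 genes were higher and 4004 lower with both hairpins. Of the 8928, 5161 were called in the same direction again and 370 in the other direction. Of 708 genes that CCNE1 moved at least 2-fold in that fit, 428 (60.5%) were still off, 332 of them among the 639. Whether base composition acted on the libraries or belongs to the genes that changed was not tested.

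**Figure D5:**
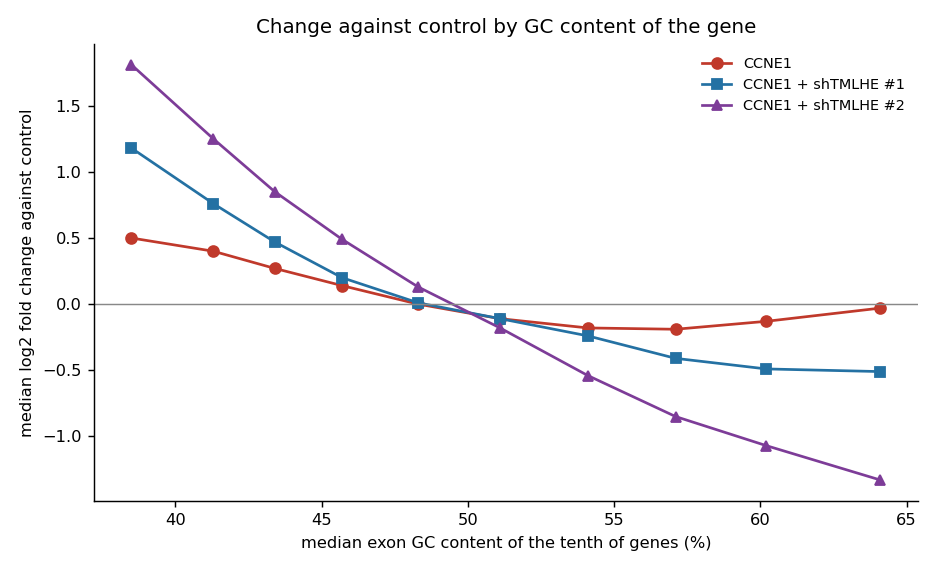
Median log2 fold change against control in 10 equal bins of the tested genes ordered by exon GC content, with CCNE1 alone, shTMLHE #1 and shTMLHE #2. Both hairpin lines fall from the lowest to the highest bin, more steeply with shTMLHE #2, and the CCNE1 line falls to -0.19 in bin 8 and ends at -0.03.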

How the data were processed

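Raw counts per gene were deposited by the authors for 12 RNA-seq libraries of Ovcar8 cells, 4 groups of 3. Per the submitters' processing notes, STAR 2.6.1, DESeq2 and GRCh38 were used. Details of the counting program, its strand setting and multi-mapped reads were not given in the sources used here. A deposited FPKM table of the same libraries was not used. Groups and replicate numbers were taken from the labels, and no 2 libraries held identical counts.

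Counts were tested with edgeR 4.0.16 in R 4.3.3 (TMM scaling, filterByExpr, robust quasi-likelihood fit of all 12 libraries with 1 mean per group, 8 residual degrees of freedom), with Benjamini-Hochberg adjustment over 15378 genes and a threshold of 0.05. The genes tested were those that passed the filter, and 43357 were left out. Intervals at 95% used the SE of the fit. The fit was tested on simulated data. Gene positions are those of the deposited table, GC content and shared exon bases came from the GENCODE annotation of GRCh38, and promoter windows came from RefSeq (GRCh38.p14).

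The members and the 27 gene lists were chosen with earlier results of these data known. Named genes are the constructs, SLC2A3, DMBT1, BRCA1 and MT1E, the largest changes of each kind at a mean log2 CPM of at least 1 with groups that did not overlap (overlap was allowed for returned genes), and members of each list by the p of the mean of both hairpins. Alternatives were other scalings, filters, tools (DESeq2 1.42.0, limma-voom from limma 3.58.1), the replicate block, removal of a GC and length trend, other thresholds and each library left out in turn. Some genes that the naming rule picked are not reported here.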

Additional observations from a re-analysis of the deposited data

Results flagged for a closer look

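Both hairpins target TMLHE, yet 646 genes (4.20% of those tested) were called in opposite directions against control. In the same direction 8928 genes (58.1%) were called. Among the largest of each kind, 4 are given here with the difference between the hairpin groups (edgeR's quasi-likelihood test, shTMLHE #1 minus shTMLHE #2, adjusted over all genes). Higher with shTMLHE #1 were ZFP92 (2.92 ± 0.24 on the log2 scale, SE), SAMD14 (2.42 ± 0.36), NDUFA4L2 (2.30 ± 0.34), and CHMP6 (2.11 ± 0.12), a subunit of the ESCRT-III complex. Higher with shTMLHE #2 were THAP12 (-3.64 ± 0.12), TRIQK (-3.38 ± 0.28), ULBP2 (-3.15 ± 0.20), a ligand of the NKG2D receptor, and RASSF3 (-3.05 ± 0.17). The adjusted p was at most 1.56e-07. These genes were picked for their difference, so its size describes them.

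ZFP92 was at 4.39, 4.28 and 3.81 CPM in control, 8.82, 11.7 and 11.8 with shTMLHE #1 and 1.60, 1.18 and 1.46 with shTMLHE #2. THAP12 was at 17.6, 18.2 and 17.1 CPM in control, 4.88, 4.31 and 6.72 with shTMLHE #1 and 66.8, 62.0 and 68.2 with shTMLHE #2. No 2 of these 3 groups overlapped in either gene. With the GC and length trend taken out, the differences from control with shTMLHE #2 were no longer called for CHMP6, NDUFA4L2, SAMD14 and THAP12, and that of TRIQK turned. Under total counts the call with shTMLHE #2 was also lost for NDUFA4L2 (-0.51, adjusted p = 0.205) and SAMD14 (-0.76, adjusted p = 0.0708), and that of NDUFA4L2 was lost without shTMLHE2 replicate 3 (-0.73, adjusted p = 0.0808).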

How the results depend on the processing

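The counts of genes called with each hairpin, with both and for their mean, and the count still off, stayed within 1.5 times their value under every alternative run. The genes behind these counts changed more. With the GC and length trend taken out, 332 of the 639 genes still off were so again. In that fit 370 of the 8928 genes called with both hairpins were called in the other direction. Under total counts these numbers were 568 and 51. Genes past control numbered 20 under total counts, 7 with no filter on low counts, 6 by limma-voom, 7 with the GC and length trend taken out, 3 with only the compared groups fitted and 2 at an adjusted p under 0.01, against 11. Returned genes numbered 1 with a bound of 1.3-fold and 24 with 2-fold, against 5. Genes off with both hairpins and within the bound with CCNE1 numbered 430 and 1943 with those bounds and 389 with the GC and length trend taken out, against 839. Leaving out each library in turn gave 3 to 5 returned genes (3 without control replicate 1), 4 to 17 past control, 605 to 687 still off and 756 to 877 newly off. SLC2A3 and MMP19 were called returned in each of these fits. ETV4 was not without control replicate 1, CCNE1 replicate 3 or shTMLHE1 replicate 1 and under upper quartile scaling, PFDN4 not without control replicate 1 or CCNE1 replicate 1 or 3 and with only the compared groups, and PDGFRB not without control replicate 2 or shTMLHE1 replicate 2. The cause of these shifts was not tested.

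With the replicate block the counts were 10452 with shTMLHE #1, 11917 with shTMLHE #2, 8833 with both, 5 returned, 612 still off and 9 past control. The replicate numbers only name the samples: over 18 same-numbered pairs the correlation of deviations ran from -0.074 to 0.068.

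Some named genes changed sign. Under total counts, which moved the median of all genes up, SLC2A3 was at 0.32 and 0.36, MMP19 at 0.098 and 0.30 (shTMLHE #1, then #2), SHMT2 at 0.20 with shTMLHE #1, and with shTMLHE #2 ETV4 was at 0.43, PDGFRB at 0.38 and PFDN4 at 0.36. With the GC and length trend taken out, PFDN4 was at -0.27, SHMT2 at 0.13 and RAD51C at -0.54 with shTMLHE #1. With shTMLHE #2 that fit gave CHMP6 0.033, CROT -0.20, ETV4 0.96, MMP19 0.15, NDUFA4L2 0.24, PDGFRB 0.48, RAD51C -0.53 and TRIQK -0.56.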
